A study of Mus musculus with 40 samples.

Results

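The genes described here are 10 regulators known from the trophoblast, the outer lineage of the early embryo that builds the placenta. They are the transcription factor genes Gata2, Gata3, Eomes, Elf5, Tfap2c, Ascl2 and Hand1 and the X-linked homeobox genes Rhox5, Rhox6 and Rhox9, chosen by symbol. Of the 10, 9 had a row in the deposited expression files, which share 23228 gene symbols, and Rhox5 was not analysed here. RNA-seq was run on 8 libraries of mouse embryonic stem cells, in 4 groups of 2. The groups were RA-treated homozygous GLP 3A cells, RA-treated wild-type cells, untreated homozygous GLP 3A cells and untreated wild-type cells, all on a mixed C57BL/6 strain background. RA stands for 1 uM all-trans retinoic acid, given while the self-renewal factor LIF was taken away, so the effects of RA and of LIF loss cannot be told apart and are called RA effects below. All cells had been grown on feeders with serum and LIF, then without feeders in 2i medium. The labels give neither the length of the RA treatment nor the origin of the GLP 3A line, and they do not say whether the replicates were separate cultures, so p-values measure the spread between these libraries, which may be technical. The other 32 of the 40 samples in the series are not analysed here.

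GLP, the product of Ehmt1, is a methyltransferase of lysine 9 of histone H3, a mark found on silent genes. In the embryo, GATA3, GATA2 and TFAP2C act in the trophectoderm, EOMES and ELF5 keep trophoblast stem cells in their undifferentiated state, ASCL2 is needed for the spongiotrophoblast, and HAND1 is needed for trophoblast giant cells. Elf5 is known as a gate between the embryonic and trophoblast lineages, since its promoter is methylated and silent in embryonic stem cells and unmethylated in trophoblast stem cells. The Rhox genes lie in a cluster on the X chromosome, are expressed in placenta and gonads, and in embryonic stem cells several of them depend on DNA methylation for their silence.

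The values are RPKM, in which reads are set relative to gene length and to the number of mapped reads, a scale on which levels of genes can be set side by side. Differences are on the log2(RPKM + 1) scale, which understates the change of low genes, with the standard error (SE) of limma's moderated test. A gene was called at a Benjamini-Hochberg adjusted p under 0.05 over the 13198 genes that reached 1 RPKM in 2 libraries or more. Ehmt1 itself, the mutated gene, stood at 13.0 and 13.9 RPKM in RA-treated GLP 3A cells, 24.4 and 23.5 in RA-treated wild-type cells, 14.1 and 14.3 in untreated GLP 3A cells, and 18.4 and 17.6 in untreated wild-type cells. Between 11344 and 12369 genes per library reached 1 RPKM. The replicate 2 libraries were shallower, with an estimated depth of 0.44 to 0.57 of the replicate 1 library of untreated wild-type cells, against 0.97 to 1.24 for replicate 1. A level of 0.045 to 0.066 RPKM corresponds to about 1 read per kilobase in replicate 1 and 0.090 to 0.136 RPKM in replicate 2, so lower values rest on very few reads.

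Of the 9 measured genes, 8 passed the filter on low values and Elf5 did not. Gata3 and Hand1 passed through their RA libraries and Eomes through its untreated libraries, so the RA calls of these 3 follow in part from the filter and no count below is given as support for a shared response. All 8 tested genes were called with RA in each genotype, where 70.4% of all tested genes were called in GLP 3A cells and 68.5% in wild-type cells. With RA, 5 of the 8 were called higher in GLP 3A cells, where 32.3% of all genes were, and 3 were called lower, where 38.1% were. The same 5 genes, Gata3, Gata2, Hand1, Rhox6 and Rhox9, were called higher with RA in wild-type cells, where 33.7% of all genes were, and the same 3, Tfap2c, Eomes and Ascl2, were called lower, where 34.8% were. Between the genotypes, 2 of the 8 were called higher and 0 lower in untreated GLP 3A cells than in untreated wild-type cells, where 7.52% and 4.15% of all genes were, 11.7% together. The share of all calls that were higher in untreated GLP 3A cells was 64.4% as deposited, 54.1% after median-of-ratios scaling and 53.2% after quantile normalization. After RA, 2 were called higher and 1 lower in GLP 3A cells than in wild-type cells, against 5.3% and 5.31% of all genes, 10.6% together. The RA response itself differed between the genotypes for 1 of the 8, Gata3, whose response was lower in GLP 3A cells, against 1.8% of all genes (0.561% higher and 1.24% lower). In bulk samples, fewer expressing cells and less RNA per cell cannot be told apart.

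**Figure D1:**
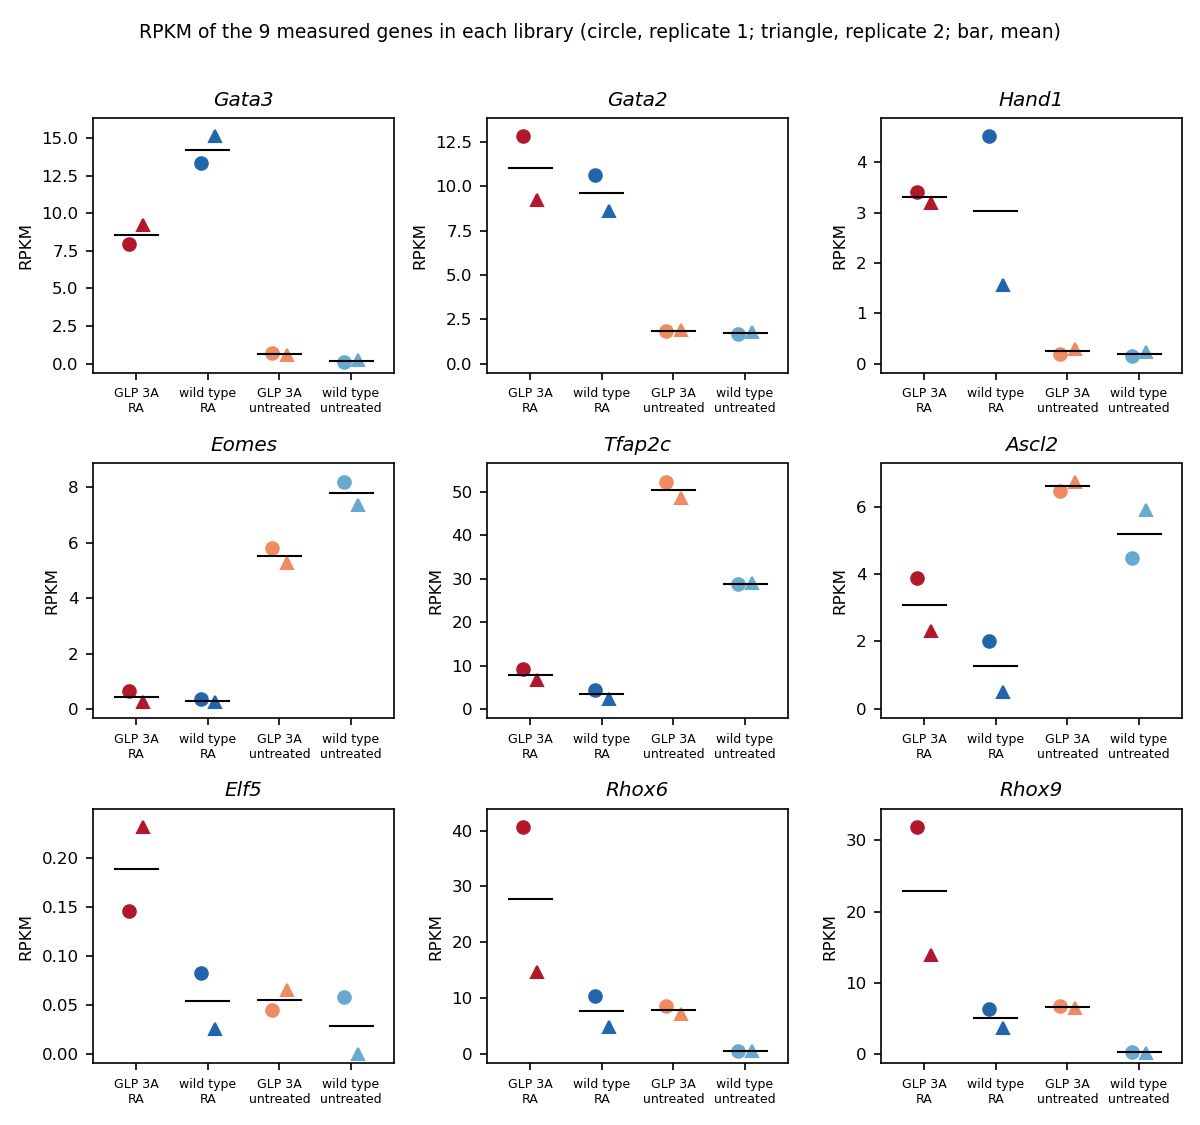
RPKM (vertical axes, linear, scaled per gene) of the 9 measured genes in the 8 libraries; circles are replicate 1, triangles are replicate 2 and bars are group means. Gata3, Gata2 and Hand1 are high in the RA libraries, Eomes, Tfap2c and Ascl2 in the untreated libraries, and Rhox6 and Rhox9 lie below 1 RPKM in untreated wild-type cells alone.

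Elf5 stayed below 1 RPKM in every library, while Gata3 and Gata2 rose together with RA. The sequences before their transcription starts are shown because they differ in how many CG dinucleotides, the sites of DNA methylation, they hold. The 250 bases before each start are from RefSeq, build GRCm38.p6, written 5′ to 3′ on the strand of the gene with each CG in capitals. The expression files use build mm9, so these coordinates are not those of the files. The table held 5 of the 9 measured genes, with 7 starts.
Elf5 start 1, chr2:103411848-103412097, plus strand: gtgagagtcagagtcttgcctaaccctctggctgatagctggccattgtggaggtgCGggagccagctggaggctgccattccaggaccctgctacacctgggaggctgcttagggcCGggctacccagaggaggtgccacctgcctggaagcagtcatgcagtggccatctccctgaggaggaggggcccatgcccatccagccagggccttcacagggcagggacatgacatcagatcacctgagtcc
Elf5 start 2, chr2:103423818-103424067, plus strand: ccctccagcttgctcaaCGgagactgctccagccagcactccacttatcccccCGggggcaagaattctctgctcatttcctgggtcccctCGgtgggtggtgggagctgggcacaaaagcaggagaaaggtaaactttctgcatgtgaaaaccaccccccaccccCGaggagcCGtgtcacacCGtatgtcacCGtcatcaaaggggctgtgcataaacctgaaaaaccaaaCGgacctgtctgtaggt
Gata3, chr2:9878601-9878850, minus strand: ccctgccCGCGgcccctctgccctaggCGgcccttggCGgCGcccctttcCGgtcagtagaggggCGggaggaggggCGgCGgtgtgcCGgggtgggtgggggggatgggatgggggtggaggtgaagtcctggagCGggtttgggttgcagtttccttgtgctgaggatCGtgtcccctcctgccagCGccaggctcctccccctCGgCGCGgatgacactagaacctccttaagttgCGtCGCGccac
Gata2 start 1, chr6:88193641-88193890, plus strand: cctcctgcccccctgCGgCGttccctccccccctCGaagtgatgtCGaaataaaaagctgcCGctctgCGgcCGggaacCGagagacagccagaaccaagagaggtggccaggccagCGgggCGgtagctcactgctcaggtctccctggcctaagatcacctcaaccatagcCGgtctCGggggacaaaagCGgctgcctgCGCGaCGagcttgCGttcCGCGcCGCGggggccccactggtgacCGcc
Gata2 start 2, chr6:88198414-88198663, plus strand: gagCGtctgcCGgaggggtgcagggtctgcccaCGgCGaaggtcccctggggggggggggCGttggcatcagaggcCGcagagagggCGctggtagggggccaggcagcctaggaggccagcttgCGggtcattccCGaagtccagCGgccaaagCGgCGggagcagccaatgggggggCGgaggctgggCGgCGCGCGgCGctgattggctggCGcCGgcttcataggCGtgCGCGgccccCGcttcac
Elf5 start 1 holds 2 CG and Elf5 start 2 holds 8 CG. Gata3 holds 19 CG, and the starts of Gata2 hold 22 and 24. Over the 32851 promoters of the table the median was 6 CG. Of them, 18.8% had fewer than Elf5 start 1 and 57.0% had fewer than Elf5 start 2, which lies above the median. For Gata3 this share was 80.3%, and for the Gata2 starts it was 85.2% and 88.0%. Eomes had 8 CG and Ascl2 had 19 in the same window. The letters GATA, read on both strands, occurred once in each Elf5 window and once in that of Eomes and did not occur in the windows of Gata3, Gata2 and Ascl2, against 53.6% of all promoters that hold them. Such a match is a description of the letters and no evidence of a bound site.

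Gata3 (mm9, chr2:9778704-9800227), a GATA factor of the trophectoderm, had the largest rise with RA of the 8 tested genes on the log2(RPKM + 1) scale in both genotypes and was the one whose response differed between them. It measured 7.92 and 9.22 RPKM in RA-treated GLP 3A cells, 13.4 and 15.1 in RA-treated wild-type cells, 0.719 and 0.611 in untreated GLP 3A cells, and 0.102 and 0.267 in untreated wild-type cells. The groups did not overlap, and the order of the genotypes turned: GLP 3A libraries were above wild-type libraries without RA and below them with RA. RA raised Gata3 by 2.52 ± 0.12 (SE) in GLP 3A cells (limma, adjusted p = 1.69e-05) and by 3.68 ± 0.12 in wild-type cells (adjusted p = 5.55e-06). The response was smaller in GLP 3A cells by a log2 difference of -1.16 ± 0.17 (limma interaction, adjusted p = 0.0381). After RA, Gata3 was lower in GLP 3A cells, with a log2 difference of -0.67 ± 0.12 (limma, adjusted p = 0.0275) and a mean that was 0.603 of the wild-type mean. Without RA the difference was 0.49 ± 0.12 (limma, adjusted p = 0.0517), which passed the threshold once the replicate number was a block (adjusted p = 0.0418). Both the RA genotype call and the call on the responses were lost in 7 of the 8 fits that left out a library, the exception being the fit without replicate 2 of RA-treated GLP 3A cells, with adjusted p up to 0.105 and 0.19. On a log scale with a pseudocount of 0.1 the response difference was -2.21 (limma, adjusted p = 0.0633) and the genotype difference with RA also lost its call (adjusted p = 0.161).

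Gata2 (mm9, chr6:88148657-88157026), the related GATA factor that acts beside GATA3 in trophoblast, rose with RA in both genotypes. Its RPKM was 12.8 and 9.25 in RA-treated GLP 3A cells, 10.6 and 8.62 in RA-treated wild-type cells, 1.84 and 1.90 in untreated GLP 3A cells, and 1.68 and 1.81 in untreated wild-type cells. The RA libraries were all above the untreated ones, and with RA the genotypes overlapped. RA raised Gata2 by 2.05 ± 0.16 in GLP 3A cells (limma, adjusted p = 8.77e-05) and by 1.95 ± 0.16 in wild-type cells (adjusted p = 0.000111). The difference of these responses was 0.10 ± 0.23 (limma, adjusted p = 0.836), and the genotype difference was 0.17 ± 0.16 with RA (adjusted p = 0.523) and 0.07 ± 0.16 without (adjusted p = 0.861).

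Hand1, the basic helix-loop-helix factor of trophoblast giant cells, which also acts in heart and lateral mesoderm, was near 0 before RA. It had 3.42 and 3.20 RPKM in RA-treated GLP 3A cells, 4.51 and 1.55 in RA-treated wild-type cells, 0.194 and 0.300 in untreated GLP 3A cells, and 0.160 and 0.225 in untreated wild-type cells. All 4 RA libraries lay above all 4 untreated ones, and the genotypes overlapped in both states, with the widest gap between the 2 RA-treated wild-type libraries. RA raised Hand1 by 1.79 ± 0.33 in GLP 3A cells (limma, adjusted p = 0.00303) and by 1.65 ± 0.33 in wild-type cells (adjusted p = 0.00446). The genotype difference was 0.20 ± 0.33 with RA (limma, adjusted p = 0.728) and 0.06 ± 0.33 without (adjusted p = 0.943). Hand1 lies on chromosome 11 (mm9, chr11:57642214-57645649), where the median difference between the genotypes over 1114 tested genes was 0.24 both without and with RA, against 0.04 and -0.01 over all genes, and the part of this shift in the Hand1 values was not tested.

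Eomes (mm9, chr9:118387306-118395250), a T-box factor of trophoblast stem cells that also acts in mesendoderm, was above 5 RPKM without RA and below 1 RPKM with it. It measured 0.649 and 0.235 RPKM in RA-treated GLP 3A cells, 0.347 and 0.234 in RA-treated wild-type cells, 5.81 and 5.26 in untreated GLP 3A cells, and 8.21 and 7.38 in untreated wild-type cells. The untreated GLP 3A libraries were below the untreated wild-type ones, and with RA the genotypes overlapped. Eomes fell by 2.19 ± 0.16 in GLP 3A cells with RA (limma, adjusted p = 6.1e-05) and fell by 2.77 ± 0.16 in wild-type cells (adjusted p = 2.68e-05). The response difference was 0.57 ± 0.22 (limma, adjusted p = 0.211). The genotype difference was -0.43 ± 0.16 without RA (limma, adjusted p = 0.134), and a fit of the 4 untreated libraries alone called it (adjusted p = 0.0357).

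Tfap2c (mm9, chr2:172375092-172384121), an AP-2 factor of trophectoderm that mouse embryonic stem cells and germ cell precursors also express, was the most abundant of the 9 genes in untreated cells of both genotypes. Its RPKM was 9.21 and 6.63 in RA-treated GLP 3A cells, 4.29 and 2.39 in RA-treated wild-type cells, 52.4 and 48.7 in untreated GLP 3A cells, and 28.8 and 28.9 in untreated wild-type cells. GLP 3A libraries were above wild-type libraries in both states without overlap. Tfap2c fell by 2.55 ± 0.23 with RA in GLP 3A cells (limma, adjusted p = 0.000137) and fell by 2.82 ± 0.23 in wild-type cells (adjusted p = 9.72e-05), and these responses differed by 0.27 ± 0.32 (adjusted p = 0.676). After RA it was higher in GLP 3A cells by 1.06 ± 0.23 (limma, adjusted p = 0.038), a mean 2.37 times that of wild-type cells. Without RA the GLP 3A mean was 1.75 times the wild-type mean, a log2 difference of 0.79 ± 0.23 that missed the threshold (limma, adjusted p = 0.0751) and passed it with the replicate block (adjusted p = 0.036). The RA genotype call held without replicate 2 of RA-treated GLP 3A cells and without replicate 1 of RA-treated wild-type cells and was lost without each of the other 6 libraries (adjusted p 0.0858 to 0.111), and it was lost without the filter (0.0587).

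Ascl2 (mm9, chr7:150152726-150155169), the basic helix-loop-helix factor of the spongiotrophoblast, an imprinted gene in placenta, fell with RA, and its genotype differences missed the threshold. It had 3.88 and 2.30 RPKM in RA-treated GLP 3A cells, 2.01 and 0.517 in RA-treated wild-type cells, 6.47 and 6.74 in untreated GLP 3A cells, and 4.49 and 5.91 in untreated wild-type cells. Each GLP 3A library was above both wild-type libraries of its state. Ascl2 fell by 0.92 ± 0.34 with RA in GLP 3A cells (limma, adjusted p = 0.0493) and fell by 1.53 ± 0.34 in wild-type cells (adjusted p = 0.00752). The difference between GLP 3A and wild-type cells was 0.91 ± 0.34 with RA (limma, adjusted p = 0.143) and 0.30 ± 0.34 without (adjusted p = 0.638). The RA call in GLP 3A cells did not hold at a pseudocount of 0.5 (adjusted p = 0.0734) or 0.1 (0.117), without the filter (0.0772), after median-of-ratios scaling (0.057), without the intensity trend (0.0511) or in 5 of the 8 fits without a library (0.0718 to 0.206).

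Elf5 (mm9, chr2:103252254-103291145), the ETS factor that marks trophoblast stem cells, stayed below 0.3 RPKM everywhere. It measured 0.145 and 0.231 RPKM in RA-treated GLP 3A cells, 0.0826 and 0.0256 in RA-treated wild-type cells, 0.0449 and 0.0655 in untreated GLP 3A cells, and 0.0583 and 0 in untreated wild-type cells. The RA-treated GLP 3A libraries were the highest and overlapped no other group, at levels worth a few reads per kilobase. Fitted without the filter, the RA difference in GLP 3A cells was 0.17 (limma, adjusted p = 0.0323), the genotype difference with RA was 0.17 (adjusted p = 0.111), and the difference of the responses was 0.14 (adjusted p = 0.398).

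**Figure D2:**
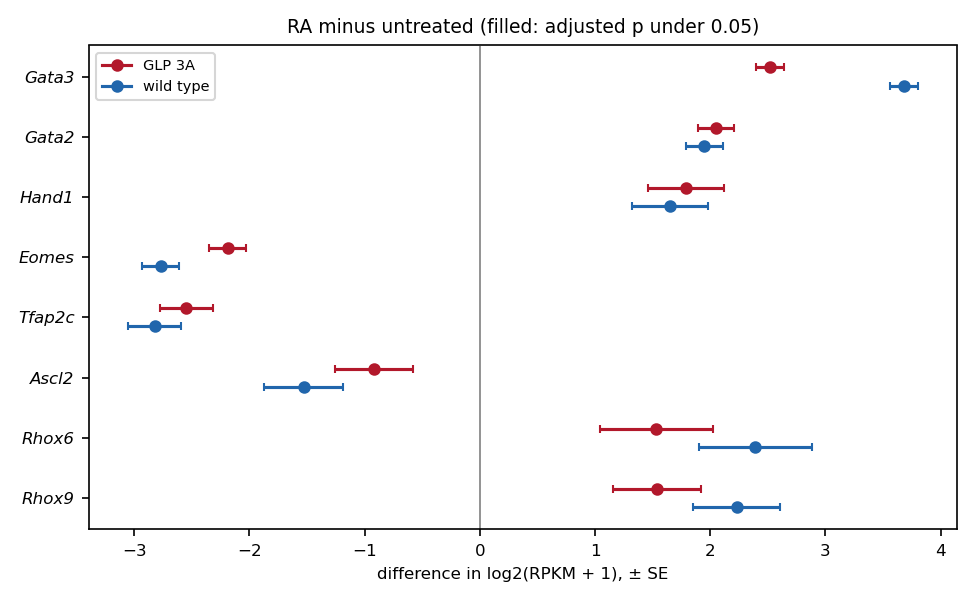
Difference in log2(RPKM + 1), RA minus untreated, with its standard error (bars), for the 8 tested genes in GLP 3A cells (upper point of each gene) and wild-type cells (lower point); filled points passed an adjusted p of 0.05. Gata3 shows the widest gap between the genotypes, 2.52 against 3.68, and each of the 8 genes has responses of the same sign in both.

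Rhox6 and Rhox9 are reproductive homeobox genes of the placental part of the X-linked cluster, and in these cells they were below 1 RPKM in untreated wild-type cells and above 3 RPKM in the other 3 groups. Rhox6 (mm9, chrX:35180231-35183034) measured 40.6 and 14.7 RPKM in RA-treated GLP 3A cells, 10.5 and 4.95 in RA-treated wild-type cells, 8.56 and 7.19 in untreated GLP 3A cells, and 0.622 and 0.532 in untreated wild-type cells. Rhox9 (mm9, chrX:35252273-35254947) measured 31.9 and 13.9 RPKM in RA-treated GLP 3A cells, 6.39 and 3.72 in RA-treated wild-type cells, 6.74 and 6.46 in untreated GLP 3A cells, and 0.278 and 0.233 in untreated wild-type cells. For both genes the RA-treated GLP 3A libraries were the highest, the untreated wild-type libraries the lowest, and the other groups, which lay between, overlapped for Rhox6 and did not for Rhox9. The replicate 1 library of RA-treated cells was above the replicate 2 library in both genotypes. Untreated, the GLP 3A mean was 25.8 times the wild-type mean for Rhox9 and 13.7 times for Rhox6. These differences were 2.60 ± 0.38 (limma, adjusted p = 0.0115) and 2.49 ± 0.49 (adjusted p = 0.0272) on the log2 scale, and both pairs of same-numbered libraries gave 2.60 for Rhox9, while they gave 2.56 and 2.42 for Rhox6.

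With RA the genotypes lay closer together on this scale. The difference was 1.91 ± 0.38 for Rhox9 (limma, adjusted p = 0.0329), a mean 4.53 times that of wild-type cells. It was 1.63 ± 0.49 for Rhox6 (limma, adjusted p = 0.0866), 3.59 times, and passed the threshold with the replicate block (adjusted p = 0.0366). RA raised Rhox9 by 1.54 ± 0.38 in GLP 3A cells (limma, adjusted p = 0.0105) and by 2.23 ± 0.38 in wild-type cells (adjusted p = 0.00224). RA raised Rhox6 by 1.53 ± 0.49 in GLP 3A cells (limma, adjusted p = 0.0286) and by 2.39 ± 0.49 in wild-type cells (adjusted p = 0.005). The responses were not shown to differ between the genotypes, at -0.69 ± 0.54 for Rhox9 (limma, adjusted p = 0.511) and -0.86 ± 0.69 for Rhox6 (adjusted p = 0.527). Without any 1 of the 4 untreated libraries the untreated genotype calls were lost, with adjusted p of 0.0827 to 0.0918 for Rhox9 and 0.126 to 0.158 for Rhox6, at differences of 2.38 to 2.62 over both genes. Without replicate 1 of RA-treated GLP 3A cells the RA difference of Rhox6 in GLP 3A cells was 0.83 (limma, adjusted p = 0.0986), and that call was also lost without each of 4 other libraries (0.0503 to 0.111) and in a fit of the GLP 3A libraries alone (0.0612). The untreated Rhox6 call was lost after quantile normalization (limma, adjusted p = 0.0527), and the Rhox9 call with RA without the filter (0.0516). The Rhox9 call with RA was lost in 7 of the 8 fits without a library, the exception being that without replicate 2 of RA-treated GLP 3A cells, with adjusted p up to 0.121. Of 12 listed silencing factors, the DNA methyltransferase gene Dnmt3b was higher in untreated GLP 3A than in untreated wild-type cells (1.20 ± 0.15, limma, adjusted p = 0.00733) and Ehmt1 was lower, and with RA 0 were higher and Ehmt1 was again lower. Without RA these calls held in 4 of the 8 fits without a library, with adjusted p up to 0.0732 for Dnmt3b and 0.195 for Ehmt1.

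**Figure D3:**
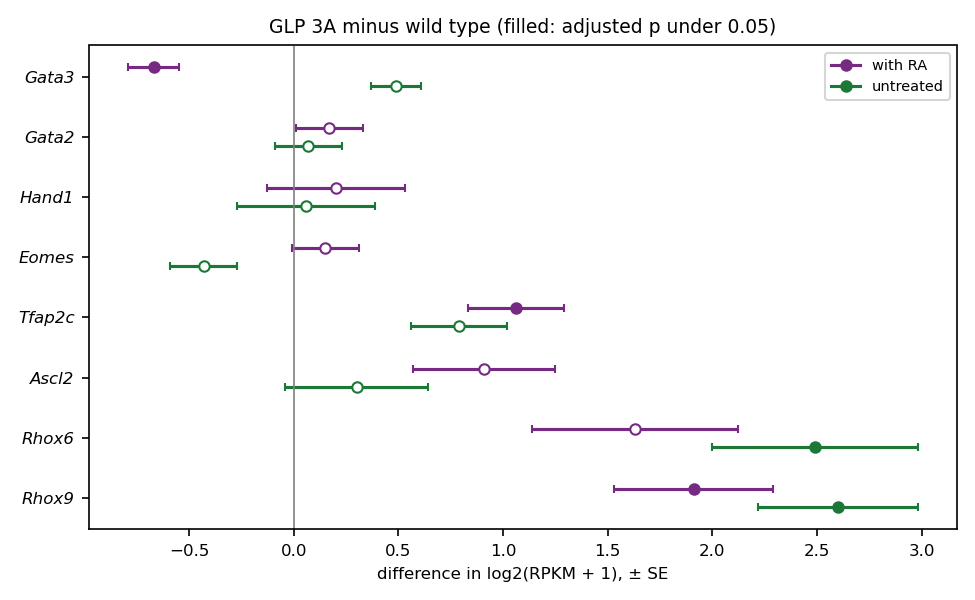
Difference in log2(RPKM + 1), GLP 3A minus wild type, with its standard error (bars), for the 8 tested genes with RA (upper point of each gene) and untreated (lower point); filled points passed an adjusted p of 0.05. Rhox9 and Rhox6 lie farthest to the right in both states, and Gata3 lies left of 0 with RA (-0.67) and right of it untreated (0.49).

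The other genes of the Rhox cluster stayed low. The files hold 31 Rhox symbols over 729 kb of the X chromosome, of which 3 reached 1 RPKM in any library, 28 stayed below 1 RPKM in all 8, and 10 of those were listed at 0 in all 8. Rhox6 and Rhox9 are separated by 69.2 kb. The third gene was Rhox1, at 3.91 and 0.989 RPKM in RA-treated GLP 3A cells, 0.238 and 0.110 in RA-treated wild-type cells, 0.690 and 0.493 in untreated GLP 3A cells, and 0.216 and 0.303 in untreated wild-type cells. Its GLP 3A libraries were above its wild-type libraries in both states, and it reached 1 RPKM in 1 library and so was not tested. The ratio of Rhox6 to Rhox9 was 1.27 and 1.06 in RA-treated GLP 3A cells, 1.64 and 1.33 in RA-treated wild-type cells, 1.27 and 1.11 in untreated GLP 3A cells, and 2.24 and 2.28 in untreated wild-type cells, where both genes were low. The labels do not say how reads that match several Rhox genes were counted, so the split between these relatives is uncertain. Within 500 kb of the cluster lay 16 tested genes of other families, of which 2 were called higher and 0 lower in untreated GLP 3A than in untreated wild-type cells, with a median difference of 0.10 and a range of -0.29 to 0.70. With RA, 0 of the 16 were called in either direction between the genotypes, with a median of -0.04. Over the whole X chromosome the median genotype difference was 0.05 without RA and -0.03 with RA, over 468 tested genes. Over the 4 tested genes of the Y chromosome it was 2.02 without RA and 1.68 with RA, and whether this difference between the lines bears on the Rhox values was not tested.

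**Figure D4:**
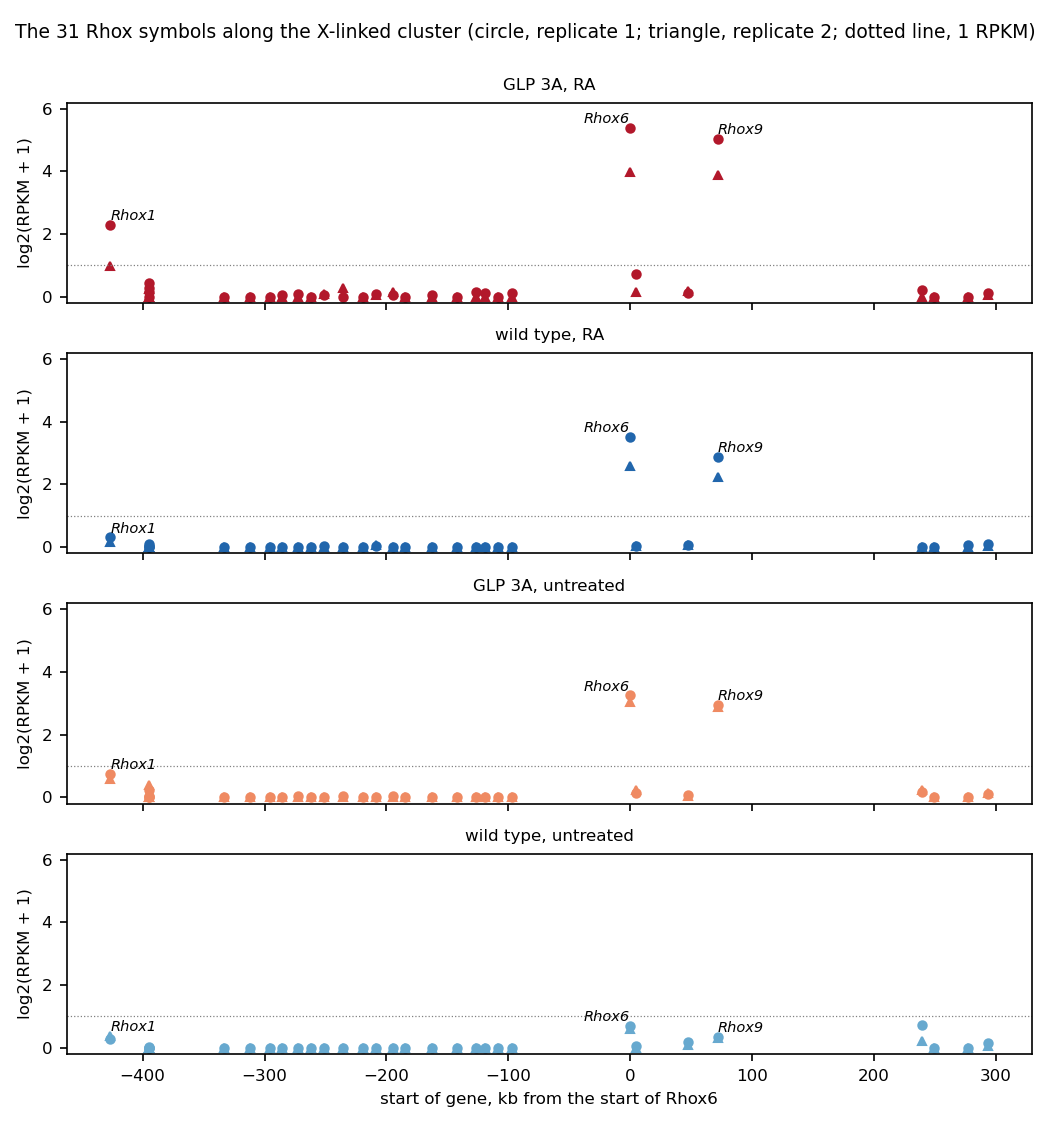
Expression as log2(RPKM + 1) (vertical axes) of the 31 Rhox symbols by the distance of their start from that of Rhox6 in kb (horizontal axis), in a panel per group; circles are replicate 1, triangles replicate 2, and the dotted line marks 1 RPKM. Rhox6 and Rhox9 stand above the line in 3 of the 4 groups, Rhox1 reaches 3.91 RPKM in 1 RA-treated GLP 3A library, and the other 28 symbols stay below it.

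Within each group the 9 genes took a different order of RPKM. In RA-treated GLP 3A cells Rhox6 (27.7 RPKM on average) and Rhox9 (22.9) came highest, and their libraries overlapped. Gata2 (11.0) came next, then Gata3 (8.57) and Tfap2c (7.92), which overlapped, then Hand1 (3.31) and Ascl2 (3.09), which overlapped, with Eomes (0.442) and Elf5 (0.188) last. In RA-treated wild-type cells Gata3 led with 14.2 RPKM, Gata2 (9.61), Rhox6 (7.72), Rhox9 (5.05), Tfap2c (3.34), Hand1 (3.03) and Ascl2 (1.26) followed with each overlapping the next, and Eomes (0.291) and Elf5 (0.0541) were lowest. In untreated GLP 3A cells Tfap2c (50.6) led by far, Rhox6 (7.87), Ascl2 (6.61), Rhox9 (6.60) and Eomes (5.53) came next, and Ascl2 and Rhox9 overlapped. Untreated wild-type cells had Tfap2c (28.9), Eomes (7.79), Ascl2 (5.20) and Gata2 (1.74) above 1 RPKM, and Rhox6 (0.577), Rhox9 (0.256), Hand1 (0.192), Gata3 (0.185) and Elf5 (0.0292) below it.

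Other regulators of trophoblast stem cells changed in both directions. Of 17 listed genes in the files, 16 were tested. With RA, 7 rose and 7 fell in GLP 3A cells, with a median of 0.20, and 8 rose and 7 fell in wild-type cells, with a median of 0.25, against -0.07 and -0.03 over all genes. The risers were led by Fgfr2, the receptor through which FGF4 keeps trophoblast stem cells dividing, and the fallers by Esrrb and Nr0b1, nuclear receptors that naive stem cells also express. Fgfr2 had 13.8 and 19.1 RPKM in RA-treated GLP 3A cells, 27.2 and 27.2 in RA-treated wild-type cells, 2.28 and 2.47 in untreated GLP 3A cells, and 0.459 and 0.455 in untreated wild-type cells. Like Gata3, it was above wild type without RA (1.21 ± 0.15, limma, adjusted p = 0.00639) and below wild type with RA (-0.71 ± 0.15, adjusted p = 0.035), and its response was smaller in GLP 3A cells by -1.92 ± 0.21 (adjusted p = 0.0204). The Fgfr2 genotype calls and its call on the responses held in 4, 2 and 2 of the 8 fits without a library, with adjusted p up to 0.0648, 0.116 and 0.143. Between the genotypes 2 of the 16 were higher and 1 lower without RA, and 1 was higher and 3 lower with RA. Cdx2, the caudal factor that specifies trophectoderm, reached 1 RPKM in 1 library and was not tested. It measured 0.94 and 0.13 RPKM in RA-treated GLP 3A cells, 1.11 and 0.29 in RA-treated wild-type cells, 0.59 and 0.65 in untreated GLP 3A cells, and 0.30 and 0.27 in untreated wild-type cells.

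Markers of differentiated trophoblast did not change as a set. Keratins and a few placental genes rose with RA, some other listed genes fell, and hormone and syncytin genes stayed below 1 RPKM. Of 24 markers in the files, 14 were tested, and 10 of the others stayed below 1 RPKM in all 8 libraries. The prolactin family genes Prl3b1, Prl2c2 and Prl8a9 were listed at 0 in all 8 libraries, and the syncytin genes Syna and Synb, the spongiotrophoblast gene Tpbpa and the placental lactogen gene Prl3d1 were below 1 RPKM in all 8. With RA, 10 of the 14 rose and 2 fell in GLP 3A cells, with a median of 2.22, and 9 rose and 3 fell in wild-type cells, with a median of 1.54. The keratins Krt18, Krt19 and Krt8, which many simple epithelia also make, led the risers in both genotypes, and Krt7 and the retrotransposon-derived gene Peg10 came next. Slc2a3 and Ovol2 were called lower with RA in both genotypes. Phlda2 was called lower in wild-type cells, from a mean of 93.9 to 29.7 RPKM, and was not called in GLP 3A cells. Cited1 was called in neither genotype. Krt7 had 81.6 and 56.9 RPKM in RA-treated GLP 3A cells, 28.9 and 26.7 in RA-treated wild-type cells, 3.26 and 3.91 in untreated GLP 3A cells, and 2.27 and 2.00 in untreated wild-type cells, and it was higher in GLP 3A cells after RA by 1.27 ± 0.17 (limma, adjusted p = 0.0147). Gcm1, a factor of the syncytiotrophoblast, had 2.75 and 1.18 RPKM in RA-treated GLP 3A cells, 0.513 and 0.370 in RA-treated wild-type cells, 0.433 and 0.582 in untreated GLP 3A cells, and 0.278 and 0.242 in untreated wild-type cells. RA raised Gcm1 by 0.92 ± 0.25 in GLP 3A cells (limma, adjusted p = 0.0147), while the value in wild-type cells was 0.19 ± 0.25 (adjusted p = 0.52). The responses were not shown to differ (0.73 ± 0.35, limma, adjusted p = 0.297). Gcm1 passed the filter through its RA-treated GLP 3A libraries alone, so its RA call in these cells follows in part from the filter. The Krt7 call was lost without either RA-treated wild-type library (adjusted p up to 0.0623), and the Gcm1 call without replicate 1 of untreated GLP 3A cells (0.072). Between the genotypes 2 of the 14 were higher and 1 lower without RA, with a median of 0.20, and 3 were higher and 1 lower with RA, with a median of 0.59.

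**Figure D5:**
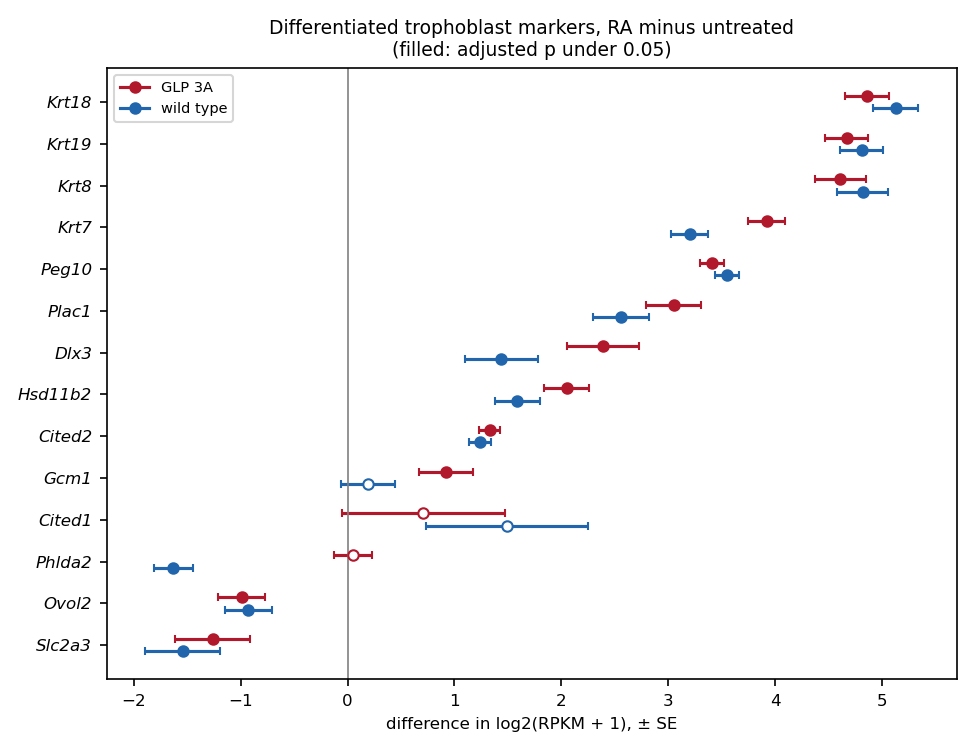
Difference in log2(RPKM + 1), RA minus untreated, with its standard error (bars), for the 14 tested markers of differentiated trophoblast in GLP 3A cells (upper point of each gene) and wild-type cells (lower point); filled points passed an adjusted p of 0.05. Krt18, Krt19 and Krt8 lie farthest to the right in both genotypes, and Gcm1 is filled in GLP 3A cells and open in wild-type cells. Gcm1 passed the filter through its RA-treated GLP 3A libraries alone.

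Relatives of the 9 genes by protein family were also read, since several act in other lineages. Of 17 in the files, 11 were tested, and with RA 6 rose and 3 fell in GLP 3A cells, while 8 rose and 3 fell in wild-type cells. Hand2, the Hand1 relative of heart and limb, showed the largest genotype difference of the list, with 1.33 and 1.71 RPKM in RA-treated GLP 3A cells against 13.1 and 12.9 in RA-treated wild-type cells, and at most 0.0383 RPKM in the untreated libraries. After RA it was lower in GLP 3A cells by a log2 difference of -2.48 ± 0.11 (limma, adjusted p = 0.000315), where Hand1 differed by 0.20, and this Hand2 call held in all 8 fits without a library. Tfap2b, the AP-2 relative of neural crest and kidney, lies on chromosome 1. The median genotype difference over the 710 tested genes of that chromosome was -0.31 with RA and -0.24 without. The part of this shift in the Tfap2b values was not tested. Tfap2b had 0.274 and 2.82 RPKM in RA-treated GLP 3A cells against 6.63 and 10.5 in RA-treated wild-type cells. It was lower in RA-treated GLP 3A cells (-2.09 ± 0.49, limma, adjusted p = 0.0469), where Tfap2c was higher, and this call held in 2 of the 8 fits without a library (adjusted p up to 0.165). Without RA the T-box gene T, which encodes brachyury, was the 1 called relative of the 11, at 0.96 ± 0.20 (limma, adjusted p = 0.0331), and its call held in 4 of the 8 fits (adjusted p up to 0.183).

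Cell types other than trophoblast express some of the 9 genes, and their marker lists moved with the same comparisons. Naive pluripotency markers, all 10 of which fell with RA in both genotypes, summed to 113.8 and 79.3 RPKM in RA-treated GLP 3A cells, 93.6 and 72.2 in RA-treated wild-type cells, 2316 and 2233 in untreated GLP 3A cells, and 2811 and 2796 in untreated wild-type cells. After RA, 3 of the 10, Nanog (2.25 ± 0.31, limma, adjusted p = 0.0146), Dppa3 (1.99 ± 0.24, 0.0108) and Klf2 (1.81 ± 0.28, 0.0183), were higher in GLP 3A cells and 0 were lower, as Tfap2c was higher there. These calls held in 7, 7 and 3 of the 8 fits without a library, with adjusted p up to 0.0613, 0.0509 and 0.0688. Endoderm markers, which include the GATA genes Gata4 and Gata6, summed to 151 and 107 RPKM in RA-treated GLP 3A cells, 405 and 119 in RA-treated wild-type cells, 7.85 and 30.9 in untreated GLP 3A cells, and 11.0 and 24.3 in untreated wild-type cells. Ttr made most of the gap between the untreated replicates. It stood at 0.0562 and 22.3 RPKM in untreated GLP 3A cells, and 0.106 and 13.7 in untreated wild-type cells. With RA, Ttr was also higher in replicate 2 than in replicate 1 of both genotypes. RA raised 6 of the 10 tested endoderm markers in GLP 3A cells and 8 in wild-type cells. Gata4, Gata6, Sox17, Foxa2, Dab2 and Pdgfra reached 1 RPKM in RA libraries alone, so these counts follow in part from the filter. The endoderm sum was highest in replicate 1 of RA-treated wild-type cells, the library in which Hand1 was also highest. Cardiac and lateral mesoderm markers, of which RA raised 5 of 7 in GLP 3A cells and all 7 in wild-type cells, summed to 39.1 and 50.7 RPKM in RA-treated GLP 3A cells, 113.6 and 119 in RA-treated wild-type cells, 15.9 and 13.9 in untreated GLP 3A cells, and 31.2 and 32.2 in untreated wild-type cells. All 7 but Bmp4 reached 1 RPKM in RA libraries alone, so these RA counts follow in part from the filter. Between the genotypes 3 of the 7 were called lower in GLP 3A cells with RA and 0 without, where the median was 0.02 and Bmp4 made most of the gap in the sums. Surface ectoderm and neural crest markers, which include relatives of Tfap2c, summed to 270 and 228 RPKM in RA-treated GLP 3A cells, 193 and 168 in RA-treated wild-type cells, 340 and 324 in untreated GLP 3A cells, and 250 and 236 in untreated wild-type cells, with the epidermal genes Trp63, Krt5 and Krt14 below 1 RPKM in all 8 libraries. Cdh1 and Epcam made most of these sums in every library. With RA, 1 of the 10 tested, Epcam, was called higher in GLP 3A cells and 2, Tfap2b and Tfap2a, were called lower, with a median of 0.15. Without RA, Epcam was called higher and 0 were called lower. Germ cell markers, a list that holds Tfap2c, summed to 42.6 and 28.7 RPKM in RA-treated GLP 3A cells, 25.04 and 18.1 in RA-treated wild-type cells, 177 and 178 in untreated GLP 3A cells, and 88.8 and 88.1 in untreated wild-type cells. Without RA, 1 of 8 tested germ cell markers, Dppa3, was called higher in GLP 3A cells, and Dppa3 and Tfap2c made most of the gap in the sums. Feeder fibroblast markers summed to 549 and 621 RPKM in RA-treated GLP 3A cells, 578 and 780 in RA-treated wild-type cells, 264 and 276 in untreated GLP 3A cells, and 343 and 328 in untreated wild-type cells, with the fibroblast genes Postn, Lum and S100a4 below 1 RPKM in all 8. Fn1 and Vim made most of these sums, and Col1a1, Col1a2 and Col3a1 reached 1 RPKM in RA libraries alone. With RA, 5 of the 7 tested rose and 2, Fn1 and Thy1, fell in both genotypes. Without RA, Vim was higher in GLP 3A cells (1.11 ± 0.21, limma, adjusted p = 0.0253), while the Fn1 difference was -0.58 ± 0.15 (adjusted p = 0.0552). Fn1 lies on chromosome 1, where the median genotype difference without RA was -0.24. The part of these cell types in the values of the 9 genes was not tested.

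Over the 8 libraries the RPKM profiles of the 8 tested genes fell into like and unlike pairs, a description in which the RA contrast is shared by all. Pearson's r of log2(RPKM + 1) was 0.99 between Rhox6 and Rhox9, 0.96 between Gata2 and Gata3, and 0.94 between Tfap2c and Ascl2, while it was -0.99 between Gata3 and Eomes and -0.32 between Tfap2c and Rhox9. Among 11874 other tested genes, 1590 followed Gata3 and 1537 followed Gata2 at an r of 0.95 or more, as did 1532 for Eomes, 707 for Tfap2c and 345 for Hand1. The Rhox genes and Ascl2 had fewer companions, 52 for Rhox6, 51 for Rhox9 and 45 for Ascl2. The profiles most like that of Rhox6 were those of Srebf1 (0.994), Pptc7 (0.994) and Slc35a4 (0.992), and those most like Rhox9 were Slc35a4 (0.993), Agpat9 (0.990) and Cdcp1 (0.989). Hand1 was followed most closely by Foxa2 (0.994), Kdr (0.993) and Myzap (0.992), and Gata3 by Cldn9 (0.999), Maged1 (0.999) and Kif3c (0.998).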

How the data were processed

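The authors deposited 1 table per library with an RPKM value and a locus for each gene symbol, per the file headers. Bowtie 0.12.7, TopHat, Cufflinks and SAMtools and the build mm9 are named in the submitters' processing notes, with no further versions. The handling of overlapping genes and of reads with several matches is not stated there, and no other symbol overlaps the locus of any of the 9 measured genes. The files hold no read counts, so relative depth was estimated and is rough. It was taken from the most frequent ratio of values up to 0.15 RPKM to those of replicate 1 of untreated wild-type cells. Low values of 970 short olfactory receptor genes settled factors of 2 in this ratio and gave the level of 1 read per kilobase. From the files, log2(RPKM + 1) was fitted with limma 3.58.1 in R 4.3.3 as 4 group means over all 8 libraries with an intensity trend in the prior. Two-sided p-values were adjusted by the Benjamini-Hochberg method over the 13198 genes that reached 1 RPKM in 2 libraries or more. The fit was tested on simulated data first. The 5 comparisons were GLP 3A against wild type with and without RA, RA-treated against untreated cells of each genotype, and the interaction of both. Comparisons that share a group are not independent. The 12 symbols missing from some file were left out. Same-numbered libraries deviated together from their group means, with correlations of 0.169 to 0.355 over the 6 pairs of groups, and were taken as paired, so the fit with the replicate number as a block is given where it changes a call. The 17 other settings changed the pseudocount, the filter, the scaling, the trend, the block or the libraries used. The 10 genes and the marker lists were chosen with earlier results of these data known, and other genes were named from these lists only, apart from the genes with the most similar profiles.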

Additional observations from a re-analysis of the deposited data

Results flagged for a closer look

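The response of Gata3 to RA differed between the genotypes by a test of the difference itself. It was smaller in GLP 3A cells than in wild-type cells by -1.16 ± 0.17 (SE) on the log2(RPKM + 1) scale (limma interaction, adjusted p = 0.0381). Same-numbered libraries gave an RA difference of 2.38 and 2.67 in GLP 3A cells and of 3.70 and 3.67 in wild-type cells, so the direction was the same in both pairs. The call was lost in 7 of the 8 fits without a library (adjusted p up to 0.19), with a pseudocount of 0.1 (0.0633) and without the filter (0.0609). With 2 libraries in each group, no group was large enough to test a library as an outlier.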

How the results depend on the processing

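Of 667 gene differences recomputed under other settings, 582 kept their direction and their side of the threshold, 60 lost a call, 18 gained one and 7 changed sign, all 7 without a call. Those 7 arose on leaving out 1 library. Without replicate 1 of RA-treated GLP 3A cells, the genotype difference with RA was -0.04 for Gata2 and -0.06 for Eomes, and without replicate 2 of RA-treated wild-type cells it was -0.36 for Hand1. Over the fits that left out each library it ran from -0.04 to 0.39 for Gata2, from -0.06 to 0.35 for Eomes and from -0.36 to 0.75 for Hand1. The response difference of Gata2 was -0.11 without replicate 1 of RA-treated GLP 3A cells. Without replicate 2 of RA-treated wild-type cells it was -0.03 for Gata2, -0.05 for Tfap2c and -0.42 for Hand1. The ranges were -0.11 to 0.32, -0.05 to 0.59 and -0.42 to 0.69 for these genes. The 8 RA calls in wild-type cells held under every setting, as did those of Gata2, Gata3, Eomes, Tfap2c, Hand1 and Rhox9 in GLP 3A cells, though the filter of 5 RPKM left Hand1 untested. The number of the 8 genes called between untreated genotypes was 2, and 4 with the replicate block and 5 with the 4 untreated libraries alone. With RA it was 3, and 1 without the filter and 0 with the 4 RA libraries alone. For the difference of responses it was 1, and 0 with a pseudocount of 0.1 and 0 without the filter. The block changed no call on these genes beyond those named above. Leaving out each library gave 0 to 4 calls between untreated genotypes, 0 to 4 with RA, 6 to 8 for RA in GLP 3A cells, 8 to 8 in wild-type cells and 0 to 2 for the response difference. Over all genes, quantile normalization called 146 response differences against 238. Of the marker genes called between genotypes, 0 of 12 held without RA and 3 of 19 held with RA in every fit that left out a library. The causes of these changes were not tested. The fit has 4 residual degrees of freedom, and values under 0.3 RPKM rest on few reads. This covers Elf5 in every library, Hand1 in every untreated library and Gata3 and Rhox9 in untreated wild-type cells. It also covers Eomes in replicate 2 of RA-treated cells of both genotypes.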
